A study of Mus musculus with 6 samples.

Results

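Cblb, Itch, Rnf128, Ndfip1, Peli1, Dgka and Dgkz encode ubiquitin ligases, a ligase adaptor and diacylglycerol kinases that restrain T cell receptor signalling. The annotation pairs 18193 genes with a probe set of their own. Of these, the 7 genes were chosen by name, from what is known of T cell anergy. Earlier results of these data were known when the choice was made. All annotated probe sets of the 7 genes were taken, 20 in all, and all 20 passed the filter on low values.

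Expression was read on Affymetrix Mouse430_2 arrays in 3 populations of CD4-stained T cells, with 2 arrays, each of 1 replicate pool, per population. All came from BALB/c hosts deficient in Rag1, which make no T or B cells of their own and had colitis when they were treated with wild-type natural regulatory T cells (nTreg) and 500000 wild-type regulatory T cells induced in culture (iTreg). At day 125, spleen and mesenteric lymph node cells of 14 treated mice were pooled and sorted on Thy1.1, the mark of the induced cells, and on EGFP, which reports Foxp3, the lineage factor of regulatory T cells. The ex-iTreg cells carried Thy1.1 and had no EGFP, the iTreg cells carried both, and the nTreg cells carried EGFP without Thy1.1. The host genotype, the paired cell transfer, the organs and the day were the same for the 3 groups. The ages of the mice are not given in the labels used here. Nor do the labels say whether the replicate pools of a group came from different animals, so the p-values cover only the variation between pools, and this may be technical.

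Anergy is a state in which a T cell that met antigen without costimulation no longer responds fully to it. Ubiquitin ligases such as Cbl-b, Itch and GRAIL (the product of Rnf128) mark receptor components and signalling proteins for removal or altered function, and mice that lack Cbl-b, Itch or the Itch activator Ndfip1 develop autoimmune or inflammatory disease. Diacylglycerol kinases act on the lipid side of the same receptor: they convert diacylglycerol, which activates Ras through RasGRP1 and NF-kappaB through PKC-theta, into phosphatidic acid. In regulatory T cells, Itch and GRAIL have been linked to suppressive function in mice.

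Promoter windows are shown for Rnf128 and Dgka, which had the largest differences between iTreg and nTreg cells of the 7 genes, and for Cblb, which was highest in ex-iTreg cells on 2 of its 3 probe sets. Each is the 250 bases before an annotated start, from RefSeq on GRCm38.p6, written 5′ to 3′ on the strand of the gene. Capitals mark a match to the EGR motif GTGGGCG or to the forkhead motifs ATAAACA and GTAAACA, searched on both strands. EGR and forkhead factors, among them Egr2, Egr3 and Foxo1, are known regulators of anergy and of regulatory T cells.
Rnf128, chrX:139610370-139610619, plus strand: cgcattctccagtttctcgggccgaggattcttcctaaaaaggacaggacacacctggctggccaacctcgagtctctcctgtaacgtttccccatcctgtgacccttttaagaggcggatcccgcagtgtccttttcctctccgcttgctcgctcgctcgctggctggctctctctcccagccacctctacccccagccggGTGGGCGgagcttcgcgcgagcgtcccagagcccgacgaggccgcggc
Cblb, chr16:52031299-52031548, plus strand: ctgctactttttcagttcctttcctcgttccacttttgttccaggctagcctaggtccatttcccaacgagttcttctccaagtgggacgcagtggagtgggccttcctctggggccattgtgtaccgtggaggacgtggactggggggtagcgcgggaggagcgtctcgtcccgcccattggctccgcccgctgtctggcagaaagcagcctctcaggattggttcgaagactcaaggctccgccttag
Dgka, chr10:128737613-128737862, minus strand: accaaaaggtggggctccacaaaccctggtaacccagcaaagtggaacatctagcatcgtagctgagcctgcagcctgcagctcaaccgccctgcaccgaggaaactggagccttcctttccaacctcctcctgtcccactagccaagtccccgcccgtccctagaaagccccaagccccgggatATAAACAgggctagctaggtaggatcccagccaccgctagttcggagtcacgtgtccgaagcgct
The Rnf128 window held 1 EGR match, 48 bases before the start, and the Dgka window 1 forkhead match, 65 bases before the start. This Dgka window belongs to 1 of 4 annotated starts, and the other 3 windows held neither motif. The Cblb window held neither. A second start of Dgkz had an EGR match on the opposite strand, 152 bases before it. Of all 32851 such windows, 7.02% held the EGR motif and 7.1% a forkhead motif. Over 27025 genes, counting any window of a gene, the shares were 7.98% and 8.06%. A gene with several starts has more windows in which to match. The NFAT motif GGAAAA, for the calcium-driven factor of the anergy programme, was in 20.4% of windows. It lay 117 bases before the start of Rnf128, on the opposite strand, and 57 bases before another start of Dgka, also on the opposite strand, and was absent from the Cblb window and the Dgka window shown. A match is a description of the letters and not a binding site, and none of the arrays measured binding. Windows of 5 of the 7 genes were read, 9 in all, and those of Itch and Ndfip1 were not. The Peli1 window and that of the first Dgkz start held no EGR, forkhead or NFAT match.

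The values are log2 expression values as deposited. Array medians lay between 5.47 and 5.49, and the filter kept 23484 probe sets that exceeded 5.48 in at least 2 of the 6 arrays. Of 6 tested T cell markers, 2 fell in ex-iTreg against iTreg, and 4 fell and 1 rose in ex-iTreg against nTreg. Cd3d, a chain of the receptor complex, averaged 12.96 in ex-iTreg, 13.12 in iTreg and 13.08 in nTreg cells, and Cd2, which fell in both ex-iTreg comparisons, 11.94, 12.41 and 12.59. Il2ra, which encodes the high-affinity IL-2 receptor chain of regulatory T cells, averaged 6.77, 9.95 and 10.02 in the same order. It was the only one of 5 tested regulatory T cell markers not called in iTreg against nTreg, where the other 4 fell, Ikzf2 by 1.22. All 5 fell in ex-iTreg cells against either group. The single Foxp3 probe set read between 3.99 and 4.29 on all arrays, under the filter level, so Foxp3 itself gave no check of the sort. The arrays also differed in quantities outside the T cell programme. The added poly-A control RNAs averaged 9.49 and 9.62 on the ex-iTreg arrays, 12.36 and 12.33 on the iTreg arrays, and 10.86 and 10.96 on the nTreg arrays. The Gapdh 3′ probe set exceeded the 5′ one by -0.0004 and -0.04 on the ex-iTreg arrays, 0.38 and 0.51 on the iTreg arrays, and 0.15 on both nTreg arrays. These controls order the groups as iTreg, nTreg, ex-iTreg, from high to low, and their part in the differences below was not tested.

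Differences are given in log2 units ± the standard error from limma, fitted over all 6 arrays, with n = 2 arrays per group. P-values are adjusted by Benjamini-Hochberg over all 23484 probe sets, and a difference is called at an adjusted p under 0.05. With 2 arrays in each group, the smallest two-sided p of an exact permutation test is 0.33, so the calls rest on limma's spread. That spread is pooled over groups and drawn toward a level estimated from all tested probe sets (3 residual and 3.37 prior degrees of freedom). The standard errors are therefore partly shared between probe sets. Where calls are said below to be lost, the losses named are mostly those on leaving out 1 array. Several of these calls were also lost under other settings, such as no filter on low values. A large share of the array was called in every comparison. In iTreg against nTreg cells, 11 of the 20 member probe sets were called, 3 higher and 8 lower, against 29.1% of all tested probe sets (14.6% higher and 14.5% lower). In ex-iTreg against iTreg cells, 12 were called, 4 higher and 8 lower, against 37.0% of all (17.7% higher and 19.3% lower). In ex-iTreg against nTreg cells, 14 were called, 5 higher and 9 lower, against 36.4% of all (18.1% higher and 18.4% lower). The median difference of the member probe sets was -0.14, -0.13 and -0.14 in these comparisons, and that of all tested probe sets 0.02, 0.00 and 0.03. Probe sets of 1 gene share their transcript, so these counts are not counts of independent genes. By the brightest probe set of each of the 7 genes, 2 rose and 2 fell in iTreg against nTreg, where 29.1% of all tested genes were called. In ex-iTreg against iTreg 2 rose and 3 fell, against 36.6% of all genes. In ex-iTreg against nTreg 2 rose and 2 fell, against 37.4%. The medians were then 0.19, -0.15 and -0.09, the first opposite in sign to that over probe sets. The comparisons share arrays and are not independent of each other. In addition, 2 of the 20 probe sets, 1449036_at of Rnf128 and 1459398_at of Peli1, lay under the filter level in 1 group and passed through the groups where they were higher. Of the other 18, the called probe sets numbered 9, 11 and 12 in the same order of comparisons. In bulk samples, fewer cells of a type and less RNA per cell cannot be told apart.

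**Figure D1:**
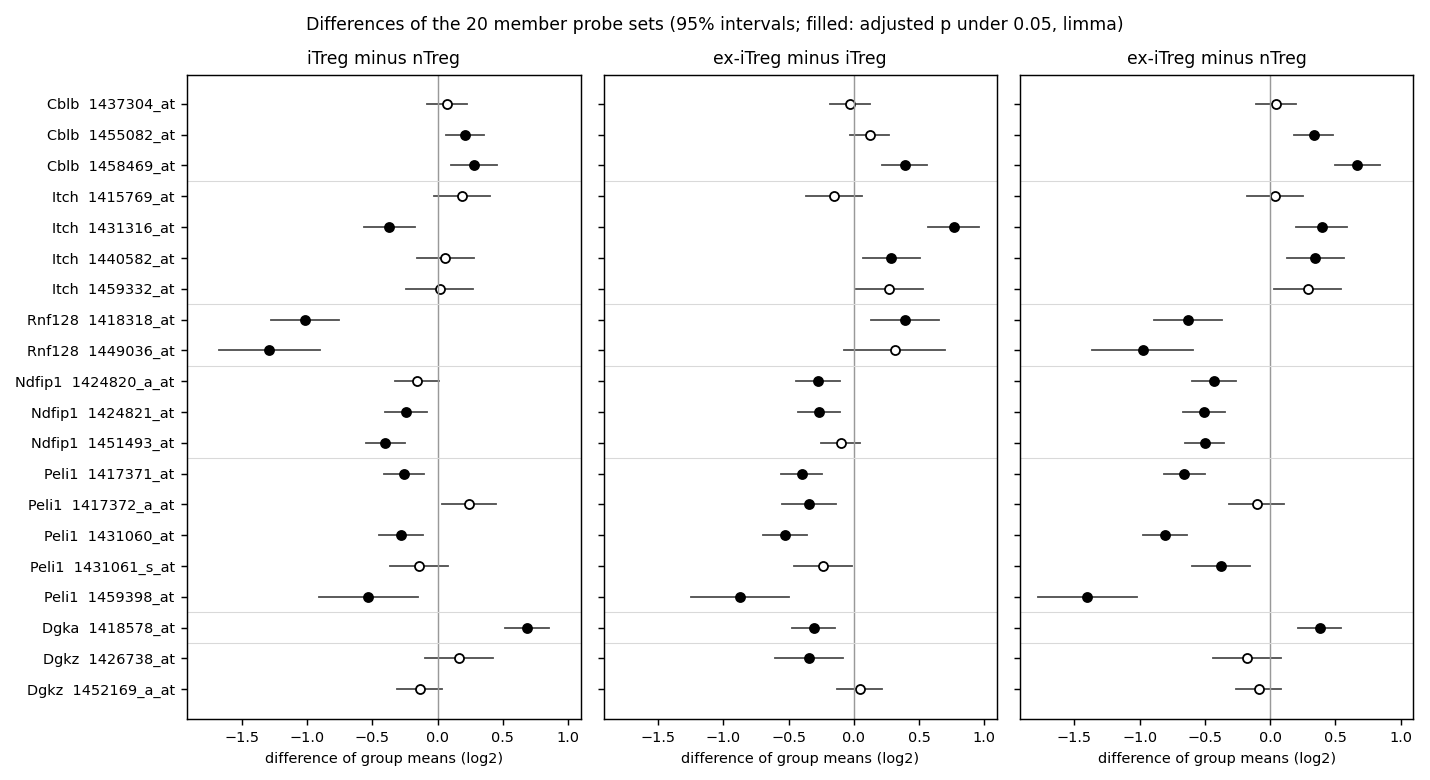
Differences of the 20 member probe sets in each comparison, in log2 units, with bars giving the 95% confidence interval from limma (n = 2 arrays per group); filled points are called at an adjusted p under 0.05. Rnf128 lies farthest to the lower side in iTreg against nTreg, Dgka stands on the higher side there, and Peli1 holds the lowest values in ex-iTreg against iTreg. Probe sets 1449036_at of Rnf128 and 1459398_at of Peli1 lay under the filter level in a group, so the size of their differences is uncertain.

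Rnf128 encodes GRAIL, a membrane-anchored RING ligase of endosomes that was first described in anergic T cells. It showed the largest differences of the 7 genes between iTreg and nTreg cells, and was lower in iTreg cells on both of its probe sets. Probe set 1418318_at read 7.52 and 7.35 in ex-iTreg cells, 6.95 and 7.14 in iTreg cells and 8.16 and 7.97 in nTreg cells. The 3 groups did not overlap, with iTreg lowest, ex-iTreg between and nTreg highest. The difference of iTreg from nTreg was -1.02 ± 0.11, a 2.03-fold lower level (adjusted p = 0.00153, limma). Ex-iTreg cells lay 0.63 below nTreg cells as well, at -0.63 ± 0.11 (adjusted p = 0.00542, limma), and 0.39 ± 0.11 above iTreg cells (adjusted p = 0.0317, limma). The call against iTreg was lost without iTreg replicate 1, without ex-iTreg replicate 1 or without ex-iTreg replicate 2, at adjusted p-values between 0.0582 and 0.16 (limma). Probe set 1449036_at read 5.68 and 5.86 in ex-iTreg cells, 5.50 and 5.42 in iTreg cells and 7.0 and 6.50 in nTreg cells. Again nTreg was highest and the groups did not overlap, but the iTreg mean of 5.46 lay under the filter level, so that this probe set was near background there and the size of its difference is uncertain. Its differences were -1.29 ± 0.16 for iTreg and -0.98 ± 0.16 for ex-iTreg against nTreg (adjusted p = 0.00264 and 0.0046, limma). Between ex-iTreg and iTreg it gave 0.31 ± 0.16 (adjusted p = 0.179, limma).

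**Figure D2:**
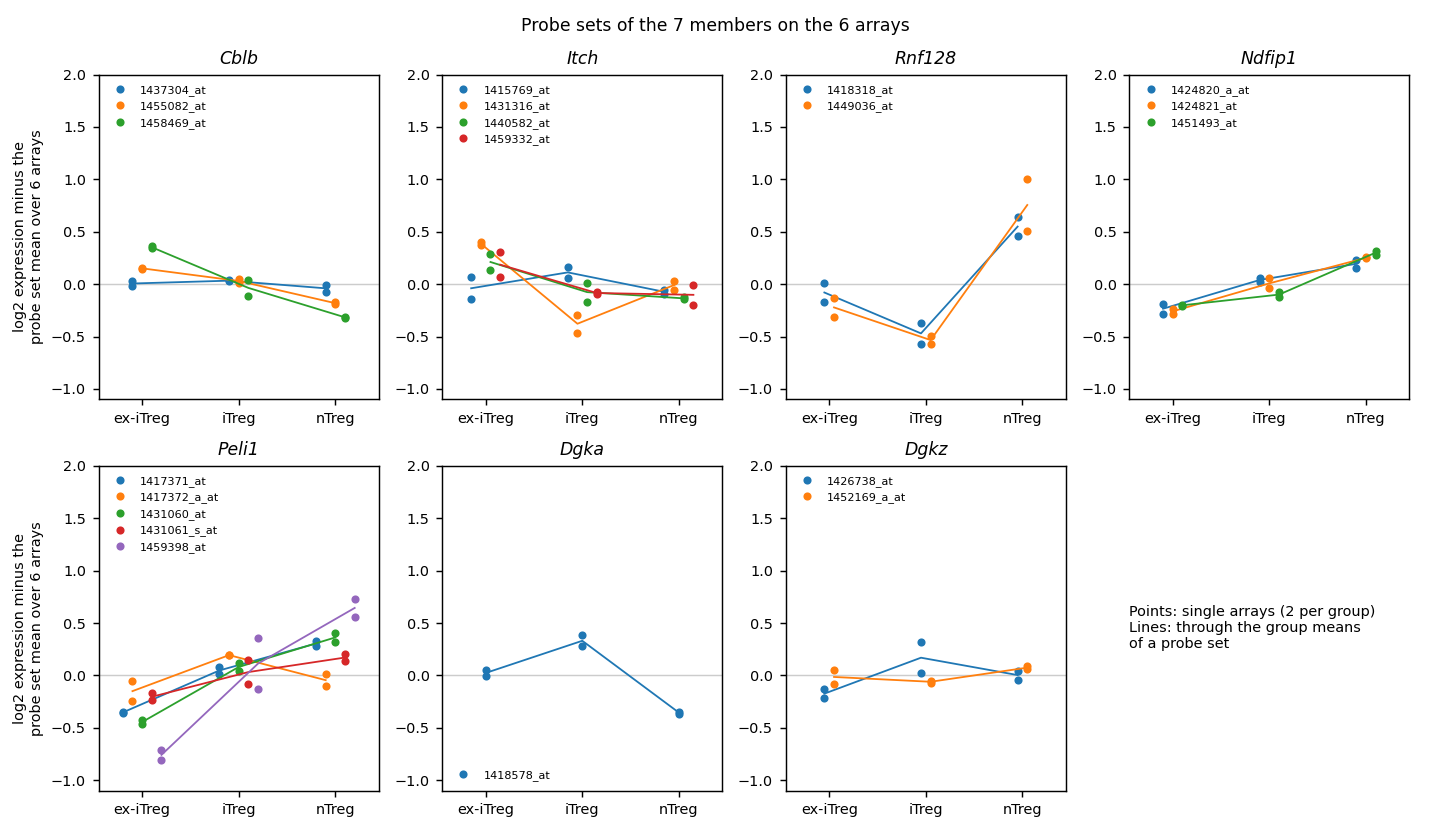
Log2 expression of every member probe set on each array, minus that probe set's mean over the 6 arrays (vertical axis, log2 units; points are arrays, 2 per group, with ex-iTreg left, iTreg in the middle and nTreg right). The nTreg arrays lie highest for both Rnf128 probe sets, the iTreg arrays lie highest for Dgka, and the probe sets of Itch and Peli1 do not share 1 pattern.

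Cblb encodes Cbl-b, the RING ligase that sets the need for CD28 costimulation. Its brightest probe set, 1458469_at, read 12.52 and 12.54 in ex-iTreg cells, 12.22 and 12.07 in iTreg cells and 11.87 and 11.86 in nTreg cells. The groups were stepped in that order with no overlap. Ex-iTreg cells exceeded nTreg cells by 0.67 ± 0.07, or 1.59-fold (adjusted p = 0.000801, limma), and iTreg cells by 0.39 ± 0.07, or 1.31-fold (adjusted p = 0.00785, limma). The iTreg cells exceeded nTreg cells by 0.28 ± 0.07 (adjusted p = 0.0315, limma). The rise in ex-iTreg over nTreg kept its call under every alternative setting. The call against iTreg was lost without ex-iTreg replicate 2 (adjusted p = 0.0528, limma), and that of iTreg against nTreg without any array other than iTreg replicate 2 (0.0642 to 0.137). Probe set 1455082_at read 10.88 and 10.89 in ex-iTreg cells, 10.74 and 10.79 in iTreg cells and 10.56 and 10.55 in nTreg cells, the same order. Here the ex-iTreg excess over nTreg was 0.33 ± 0.06 (adjusted p = 0.00696, limma), and that over iTreg, 0.12 ± 0.06, was not called (adjusted p = 0.17, limma). The iTreg excess over nTreg was 0.21 ± 0.06 (adjusted p = 0.0434, limma), and its call was lost without any 1 of the 6 arrays (0.0852 to 0.172). The third probe set, 1437304_at, did not share this order. It read 9.28 and 9.22, 9.27 and 9.28, and 9.24 and 9.17 in ex-iTreg, iTreg and nTreg cells, with differences between -0.03 and 0.07 and no call.

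Peli1 encodes Pellino-1, a ligase that in mouse T cells limits receptor signalling by ubiquitinating c-Rel. Of its 5 probe sets, 4 were highest in nTreg and lowest in ex-iTreg cells, and the brightest was highest in iTreg cells. Probe set 1417371_at read 11.11 and 11.10 in ex-iTreg cells, 11.47 and 11.53 in iTreg cells and 11.79 and 11.73 in nTreg cells. No group overlapped another. It fell by 0.66 in ex-iTreg against nTreg (-0.66 ± 0.06, adjusted p = 0.000513, limma) and by 0.40 against iTreg (-0.40 ± 0.06, adjusted p = 0.00451, limma). Probe set 1431060_at read 8.41 and 8.45 in ex-iTreg cells, 9.0 and 8.91 in iTreg cells and 9.28 and 9.19 in nTreg cells, in the same order. Its ex-iTreg level was 1.75-fold below nTreg (-0.81 ± 0.07, adjusted p = 0.000305, limma) and -0.53 ± 0.07 from iTreg (adjusted p = 0.00219, limma). The ex-iTreg differences of these 2 probe sets from both other groups kept their calls under every alternative. Their iTreg to nTreg differences, -0.26 and -0.28, were called at adjusted p = 0.028 and 0.0268 (limma). Those calls were lost without any 1 array for 1417371_at and without any but nTreg replicate 2 for 1431060_at (0.0547 to 0.13). The low probe set 1459398_at read 4.68 and 4.78 in ex-iTreg cells, 5.84 and 5.36 in iTreg cells and 6.21 and 6.04 in nTreg cells. Its ex-iTreg values lay under the filter level, which it passed through the other groups. Its order is therefore a description, and the size of its differences, which enters the last means given below, is uncertain.

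The brightest Peli1 probe set, 1417372_a_at, read 11.89 and 12.08 in ex-iTreg cells, 12.33 and 12.32 in iTreg cells and 12.03 and 12.14 in nTreg cells. Only the iTreg arrays stood apart, and ex-iTreg and nTreg overlapped. It gave 0.24 ± 0.09 in iTreg against nTreg, opposite in sign to the other 4 probe sets and not called (adjusted p = 0.0839, limma). In ex-iTreg against iTreg it fell by 0.34 (-0.34 ± 0.09, adjusted p = 0.0225, limma), but was no longer called without iTreg replicate 1, iTreg replicate 2 or ex-iTreg replicate 1 (0.0852 to 0.119). The remaining probe set, 1431061_s_at, was called only in ex-iTreg against nTreg, at -0.37 ± 0.09 (adjusted p = 0.0209, limma). That call was lost without nTreg replicate 1, ex-iTreg replicate 1 or ex-iTreg replicate 2 (0.072 to 0.11). The mean over the 4 Peli1 probe sets other than 1459398_at was -0.11 in iTreg against nTreg, -0.38 in ex-iTreg against iTreg and -0.49 in ex-iTreg against nTreg; with 1459398_at it was -0.19, -0.48 and -0.67.

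Itch encodes a HECT ligase of the Nedd4 family whose known targets include JunB. Its probe sets did not move as 1 gene. The brightest, 1415769_at, read 9.52 and 9.73 in ex-iTreg cells, 9.83 and 9.73 in iTreg cells and 9.57 and 9.62 in nTreg cells, and was called in none of the comparisons (adjusted p between 0.166 and 0.793, limma). Probe set 1431316_at read 8.40 and 8.43 in ex-iTreg cells, 7.56 and 7.74 in iTreg cells and 8.06 and 7.98 in nTreg cells. On this probe set ex-iTreg was highest and iTreg lowest, with no overlap. It rose by 0.76 ± 0.08 in ex-iTreg over iTreg, or 1.70-fold (adjusted p = 0.000993, limma), and this call held under every alternative. It was 0.39 ± 0.08 above nTreg in ex-iTreg cells (adjusted p = 0.0109, limma) and -0.37 ± 0.08 from nTreg in iTreg cells (adjusted p = 0.0185, limma). The first of these calls was lost without either ex-iTreg array (0.0537 and 0.0663), and the other without nTreg replicate 1 or iTreg replicate 1 (0.0703 and 0.0835). Probe set 1440582_at was also higher in ex-iTreg cells, by 0.29 ± 0.09 over iTreg and 0.35 ± 0.09 over nTreg (adjusted p = 0.0466 and 0.025, limma). The first call was lost without any array but iTreg replicate 2 (0.0626 to 0.221), and the second without nTreg replicate 1, nTreg replicate 2 or ex-iTreg replicate 1 (0.0712 to 0.139). Probe set 1459332_at gave 0.27 ± 0.11 and 0.29 ± 0.11 in the same comparisons and was not called. Which Itch transcripts each probe set reads was not tested.

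Ndfip1 encodes the membrane adaptor that recruits and activates Itch and its relatives. It was lowest in ex-iTreg and highest in nTreg cells on all 3 of its probe sets. The brightest, 1424821_at, read 12.12 and 12.17 in ex-iTreg cells, 12.46 and 12.36 in iTreg cells and 12.66 and 12.65 in nTreg cells, with no overlap. Ex-iTreg cells fell by 0.51 below nTreg cells (-0.51 ± 0.07, 1.42-fold, adjusted p = 0.00175, limma). Probe set 1424820_a_at read 11.65 and 11.74 in ex-iTreg cells, 11.95 and 11.99 in iTreg cells and 12.16 and 12.09 in nTreg cells, in the same order. Probe set 1451493_at read 11.02 and 11.01 in ex-iTreg cells, 11.15 and 11.09 in iTreg cells and 11.54 and 11.50 in nTreg cells, where both induced populations lay well below nTreg. The ex-iTreg to nTreg differences of these probe sets were -0.43 ± 0.07 and -0.50 ± 0.06 (adjusted p = 0.00432 and 0.00142, limma), and all 3 held under every alternative. Between iTreg and nTreg, 1451493_at gave -0.40 ± 0.06 (adjusted p = 0.00577, limma), also under every alternative. There 1424821_at gave -0.24 ± 0.07 (adjusted p = 0.038, limma), lost without any 1 array (0.0698 to 0.173), and 1424820_a_at gave -0.15 ± 0.07 without a call. In ex-iTreg against iTreg, 1424820_a_at and 1424821_at both gave -0.27 ± 0.07 (adjusted p = 0.0235 and 0.0222, limma), and 1451493_at gave -0.10, not called. The call of 1424820_a_at was lost without any iTreg or ex-iTreg array (0.0595 to 0.131), and that of 1424821_at without iTreg replicate 1 or either ex-iTreg array (0.0769 to 0.118).

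Dgka encodes diacylglycerol kinase alpha, the isoform whose transcript is high in anergic and resting T cells. Its single probe set, 1418578_at, read 11.70 and 11.75 in ex-iTreg cells, 11.98 and 12.09 in iTreg cells and 11.34 and 11.36 in nTreg cells. The groups did not overlap, with iTreg highest and nTreg lowest. The iTreg level rose by 0.69 ± 0.07 over nTreg, or 1.61-fold (95% confidence interval 0.52 to 0.85, adjusted p = 0.00123, limma), and kept its call under every alternative. Ex-iTreg cells exceeded nTreg cells by 0.38 ± 0.07 (adjusted p = 0.00674, limma) and fell by 0.31 below iTreg cells (-0.31 ± 0.07, adjusted p = 0.0149, limma). The first call was lost without ex-iTreg replicate 2 (0.0502), and the second without iTreg replicate 2, ex-iTreg replicate 1 or ex-iTreg replicate 2 (0.0606 to 0.0875).

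Markers of myeloid cells ran in the same order as Dgka. The summed linear level of the 10 myeloid markers was 3073 and 3050 on the ex-iTreg arrays, 4768 and 4778 on the iTreg arrays, and 2515 and 2434 on the nTreg arrays. Of the 9 that were tested, 8 rose and 0 fell in iTreg against nTreg, 0 rose and 8 fell in ex-iTreg against iTreg, and 5 rose and 0 fell in ex-iTreg against nTreg. Csf1r, the macrophage growth factor receptor, averaged 9.49 in ex-iTreg, 10.21 in iTreg and 9.0 in nTreg cells, while Itgam lay under the filter level in all 3. B cell markers ran in another order, that of Ndfip1: their summed level was 2387 and 2303 on the ex-iTreg arrays, 4759 and 4828 on the iTreg arrays, and 5130 and 5107 on the nTreg arrays. Of the 7 B cell markers 4 were tested, and 2, 3 and 3 of them fell in iTreg against nTreg, ex-iTreg against iTreg and ex-iTreg against nTreg. Erythroid markers, of which 3 of 5 were read, summed to 406 and 353 on the ex-iTreg arrays, 610 and 582 on the iTreg arrays, and 406 and 390 on the nTreg arrays. Markers of CD8 T and NK cells summed to 393 and 343, 207 and 236, and 330 and 302 in the same order of groups, lowest in iTreg. Of the 3 that were tested, 0 rose and 2 fell in iTreg against nTreg, 2 rose and 1 fell in ex-iTreg against iTreg, and 1 rose and 1 fell in ex-iTreg against nTreg. Eomes, a transcription factor of cytotoxic cells, averaged 7.79 in ex-iTreg, 5.98 in iTreg and 6.22 in nTreg cells. Cd8b1 ran the other way, at 5.27, 6.02 and 7.11, and its ex-iTreg mean lay under the filter level. The hosts make no T or B cells of their own, and the source of these marker transcripts was not tested. Nor was their part in the member differences tested.

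Dgkz encodes diacylglycerol kinase zeta, the isoform that carries most of the kinase's restraint on Ras in mouse T cells. Its bright probe set, 1452169_a_at, read 12.51 and 12.38 in ex-iTreg cells, 12.41 and 12.39 in iTreg cells and 12.52 and 12.55 in nTreg cells. All 6 arrays lay between 12.38 and 12.55, and no comparison was called. The 95% confidence interval was -0.31 to 0.04 for iTreg minus nTreg, -0.13 to 0.22 for ex-iTreg minus iTreg and -0.26 to 0.08 for ex-iTreg minus nTreg. These intervals bound the difference but do not show that the levels were equal. Probe set 1426738_at read 8.73 and 8.82 in ex-iTreg cells, 8.97 and 9.27 in iTreg cells and 9.0 and 8.91 in nTreg cells. It fell by 0.34 in ex-iTreg against iTreg (-0.34 ± 0.11, adjusted p = 0.0471, limma), and this call did not survive the loss of any array but iTreg replicate 1. That call was also lost with no filter, quantile normalization, equal array medians, only the 4 arrays compared or a replicate block. In iTreg against nTreg it gave 0.17 ± 0.11 with an interval of -0.09 to 0.42, while Dgka gave an interval of 0.52 to 0.85 there. The difference between the responses of the 2 kinases was not tested.

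Of the other diacylglycerol kinases, 4 of 8 were tested, and Dgkh, Dgkd, Dgke and Dgkq are named for that reason. Dgkh, the eta isoform, fell by 1.03 in iTreg against nTreg (-1.03 ± 0.06, adjusted p = 0.000232, limma) on its brightest probe set, with means of 7.59 in ex-iTreg, 7.20 in iTreg and 8.24 in nTreg cells. It was opposite to Dgka in that its level was lowest in iTreg cells, but its other probe sets gave -0.34 and -0.08 and were not called (adjusted p = 0.069 and 0.546, limma). Dgkh gave 0.39 ± 0.06 in ex-iTreg against iTreg (adjusted p = 0.00455, limma). Dgkd fell by 0.30 in ex-iTreg against iTreg (adjusted p = 0.017, limma), but was no longer called without iTreg replicate 2 or either ex-iTreg array (0.0698 to 0.0948), while its other 3 probe sets gave -0.31, -0.05 and 0.19 and were not called. Dgke and Dgkq were called in none of the comparisons on their brightest probe sets, although Dgke probe set 1423000_a_at gave 0.45 in iTreg against nTreg (adjusted p = 0.0249, limma). Of all tested genes, 29.1% were called in iTreg against nTreg, 36.6% in ex-iTreg against iTreg and 37.4% in ex-iTreg against nTreg. The medians over all genes were 0.04, -0.02 and 0.03. By brightest probe set, 0 of these kinases rose and 1 fell in iTreg against nTreg. In ex-iTreg against iTreg 1 rose and 1 fell, and in ex-iTreg against nTreg 0 rose and 1 fell (medians -0.13, 0.12 and -0.18). In ex-iTreg against iTreg the lower count was 0 without iTreg replicate 2 or either ex-iTreg array, and the higher count 2 without either nTreg array.

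**Figure D3:**
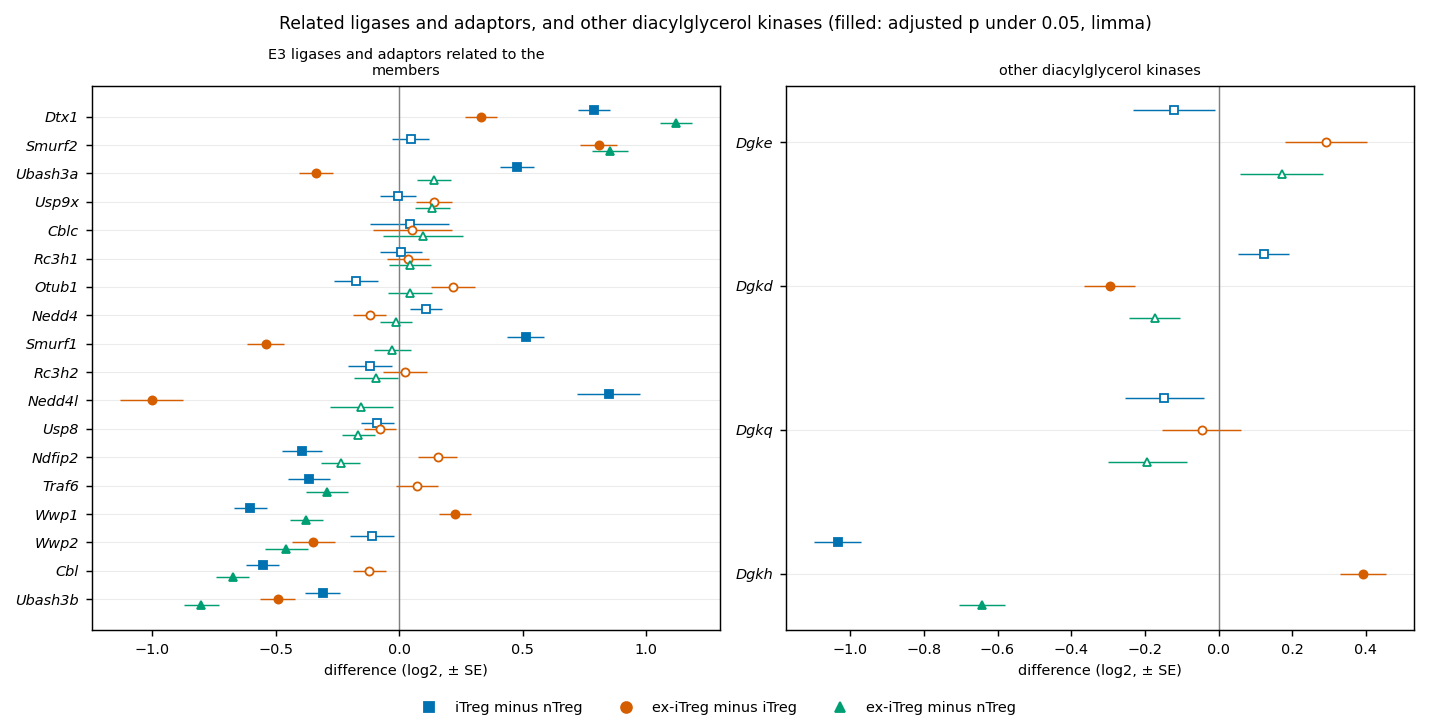
Differences in log2 units of related ubiquitin ligases and adaptors and of the other diacylglycerol kinases in the 3 comparisons, on the brightest probe set of each gene; bars are ± 1 standard error from limma (n = 2 arrays per group), and filled symbols are called. Dtx1 and Smurf2 are the highest in ex-iTreg against nTreg, and Dgkh and Nedd4l stand out in iTreg against nTreg in opposite directions. Nedd4l lay near the filter level in ex-iTreg and nTreg cells, so the size of its differences is uncertain.

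Among 20 related ubiquitin ligases, adaptors and their partners, 18 were tested. Of these, 4 rose and 5 fell in iTreg against nTreg (median -0.05, against 0.04 over all genes), where 29.1% of all tested genes were called, 16.4% higher and 12.7% lower. In ex-iTreg against iTreg, 3 rose and 5 fell (median 0.03, against -0.02), where 36.6% of all genes were called, 15.6% higher and 21.0% lower. Against nTreg, 2 rose and 5 fell in ex-iTreg cells (median -0.06, against 0.03), where 37.4% of all genes were called, 18.4% higher and 19.0% lower. Dtx1, the Notch-pathway ligase Deltex1 that has been linked to anergy, averaged 11.10 in ex-iTreg, 10.77 in iTreg and 9.98 in nTreg cells. It rose by 0.79 ± 0.06 in iTreg and by 1.12 ± 0.06 in ex-iTreg cells over nTreg (adjusted p = 0.00061 and 5.89e-05, limma). Its other probe set, 1458643_at, gave -0.14 and -0.36 in the same comparisons (adjusted p = 0.316 and 0.0309, limma), the opposite direction. Smurf2, a HECT ligase of the TGF-beta pathway, rose by 0.81 ± 0.07 in ex-iTreg over iTreg and by 0.85 ± 0.07 over nTreg (adjusted p = 0.000571 and 0.000314, limma). Nedd4l, a relative of Itch, rose by 0.85 ± 0.13 in iTreg over nTreg and fell by 1.00 in ex-iTreg against iTreg (adjusted p = 0.00512 and 0.00193, limma). Its means of 5.66 in ex-iTreg and 5.82 in nTreg cells lay near the filter level, so the size of these differences is uncertain. The other Nedd4l probe sets did not pass the filter. Wwp1, another relative, fell by 0.60 in iTreg against nTreg, and Cbl, the paralogue of Cblb, fell by 0.55 (adjusted p = 0.00169 and 0.0024, limma). The other Cbl probe sets gave -0.15 and 0.08 there and were not called. Cbl was at -0.67 ± 0.07 in ex-iTreg against nTreg (adjusted p = 0.000557, limma) and lower on all 3 of its probe sets, opposite to the rise of Cblb on its 2 brighter probe sets. Ubash3b, a phosphatase that binds Cbl proteins and dampens receptor signals, fell by 0.80 in ex-iTreg against nTreg (adjusted p = 0.00035, limma). Ndfip2, the paralogue of Ndfip1, gave -0.39 ± 0.08 in iTreg against nTreg (adjusted p = 0.0141, limma), but was no longer called without nTreg replicate 1 or iTreg replicate 2 (0.0559 and 0.0721), and its other probe sets gave -0.03 and 0.06. The count of lower genes dropped to 2 without nTreg replicate 1 or iTreg replicate 2 and to 3 without iTreg replicate 1 in iTreg against nTreg. It was 3 without ex-iTreg replicate 1 in both ex-iTreg comparisons, and the higher count in ex-iTreg against iTreg was 1 without ex-iTreg replicate 2.

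Diacylglycerol and its effectors lie downstream of the receptor, and 17 of 21 listed genes were tested. The brightest probe sets of 4 rose and of 4 fell in iTreg against nTreg. In ex-iTreg against iTreg 4 rose and 5 fell, and in ex-iTreg against nTreg 6 rose and 3 fell. Their medians were 0.03, 0.03 and 0.05 in that order. Over all tested genes the shares higher and lower were 16.4% and 12.7%, 15.6% and 21.0%, and 18.4% and 19.0%. The medians over all genes were 0.04, -0.02 and 0.03. Prkcq, which encodes PKC-theta, rose by 0.62 ± 0.06 in iTreg over nTreg and by 0.42 ± 0.06 in ex-iTreg over nTreg (adjusted p = 0.00116 and 0.00285, limma). Lat, the membrane scaffold that gathers the phospholipase, rose by 0.42 ± 0.07 and 0.50 ± 0.07 in the same comparisons (adjusted p = 0.00646 and 0.002, limma). Malt1, the protease that links PKC-theta to NF-kappaB, was lowest in iTreg cells, with means of 11.79 in ex-iTreg, 10.85 in iTreg and 11.21 in nTreg cells. It rose by 0.94 ± 0.06 in ex-iTreg over iTreg and fell by 0.36 in iTreg against nTreg (adjusted p = 0.000174 and 0.00853, limma). Its other probe sets had the same signs. Rasgrp2, a relative of Rasgrp1, rose by 0.67 ± 0.13 in ex-iTreg over nTreg on its brightest probe set (adjusted p = 0.00889, limma). That probe set gave 0.32 ± 0.13 in ex-iTreg over iTreg and was not called. The other Rasgrp2 probe sets were called higher in both comparisons, by 0.94 to 1.23 over nTreg and by 0.66 to 0.85 over iTreg. Rasgrp1, the diacylglycerol-driven Ras activator, gave 0.20 ± 0.06 in iTreg against nTreg without a call and fell by 0.25 in ex-iTreg against iTreg (adjusted p = 0.0224, limma). That call was lost without any iTreg or ex-iTreg array (0.0818 to 0.113), and its other 3 probe sets were not called. Prkcd, the delta isoform of protein kinase C, fell by 0.41 in ex-iTreg against iTreg on 1 probe set and gave 0.41 on the other (adjusted p = 0.0118 and 0.012, limma), so that no direction can be given. Sos1, a Ras exchange factor, rose by 0.59 ± 0.09 in ex-iTreg over nTreg, and Prkch, the eta isoform of protein kinase C, fell by 0.50 there (adjusted p = 0.00292 and 0.0015, limma). Plcg1, the phospholipase that makes diacylglycerol, gave 0.22 ± 0.06 in the same comparison (adjusted p = 0.0345, limma), a call that did not outlast the loss of any 1 array (0.0575 to 0.146). The lower count was 1 in iTreg against nTreg without iTreg replicate 2. It was 2 in ex-iTreg against iTreg without iTreg replicate 1, 1 without ex-iTreg replicate 1, and 0 without iTreg replicate 2 or ex-iTreg replicate 2.

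**Figure D4:**
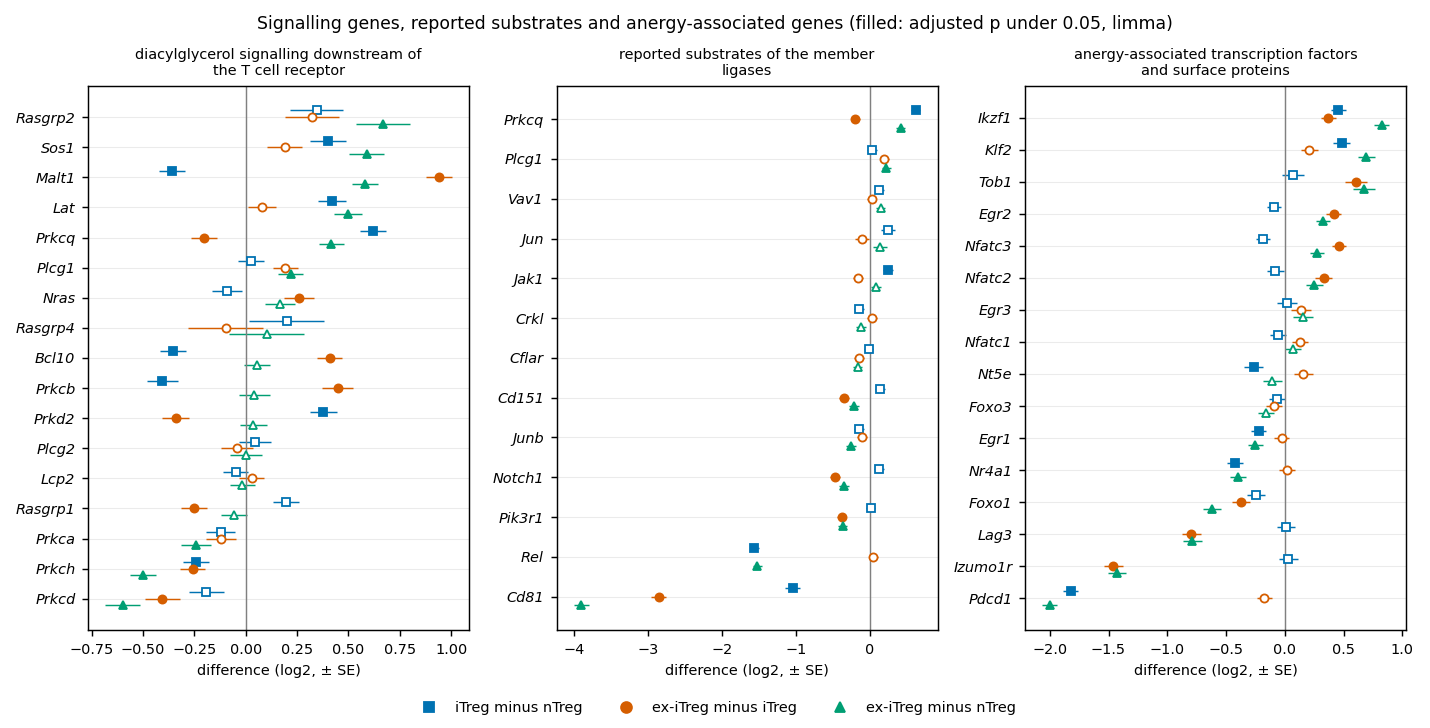
Differences in log2 units of genes of diacylglycerol signalling, of reported substrates of the member ligases, and of anergy-associated transcription factors and surface proteins, on the brightest probe set of each gene; bars are ± 1 standard error from limma (n = 2 arrays per group), and filled symbols are called. Malt1 lies highest in ex-iTreg against iTreg, Rel and Pdcd1 are low in both induced populations against nTreg, and Cd81 is lowest in ex-iTreg.

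Proteins reported as substrates of these ligases were read as transcripts only, 13 of 15 being tested. Of these 2 rose and 2 fell in iTreg against nTreg. In ex-iTreg against iTreg 0 rose and 5 fell, and in ex-iTreg against nTreg 2 rose and 6 fell. The 2 that rose there, Prkcq and Plcg1, are also counted in the diacylglycerol list above. Of the 6 falls, that of Cd151 (-0.22) lost its call with no filter, quantile normalization or equal array medians. Their medians were 0.03, -0.15 and -0.17 in that order. Over all tested genes the shares higher and lower were 16.4% and 12.7%, 15.6% and 21.0%, and 18.4% and 19.0%. The medians over all genes were 0.04, -0.02 and 0.03. Rel, the c-Rel subunit of NF-kappaB and a Peli1 substrate, fell by 1.57 in iTreg and by 1.53 in ex-iTreg cells against nTreg (adjusted p = 7.6e-05 and 1.33e-05, limma). Its means were 8.57 in ex-iTreg, 8.53 in iTreg and 10.10 in nTreg cells. Cd81, a tetraspanin reported as a target of GRAIL and also abundant on B cells, averaged 7.34 in ex-iTreg, 10.20 in iTreg and 11.25 in nTreg cells. It fell by 2.86 in ex-iTreg against iTreg and by 1.05 in iTreg against nTreg (adjusted p = 1.68e-05 and 0.00104, limma). Notch1, a reported Itch target, fell by 0.47 in ex-iTreg against iTreg (adjusted p = 0.00266, limma), and Cd151, another tetraspanin, by 0.36 (adjusted p = 0.0091, limma). The Cd151 call was lost without iTreg replicate 2 or ex-iTreg replicate 1 (0.0551 and 0.0631). Pik3r1, the PI3-kinase subunit that Cbl-b binds, fell by 0.37 in ex-iTreg against nTreg (adjusted p = 0.00436, limma), with all 4 of its probe sets lower there. Leaving out any 1 array left 1 higher gene in place of 2 in iTreg against nTreg and in ex-iTreg against nTreg. The lower count was 3 in ex-iTreg against iTreg without iTreg replicate 2 or ex-iTreg replicate 1, and 3 in ex-iTreg against nTreg without ex-iTreg replicate 2.

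Of 17 anergy-associated transcription factors and surface proteins, 16 were tested. The calls were 2 higher and 4 lower in iTreg against nTreg. In ex-iTreg against iTreg 5 rose and 3 fell, and in ex-iTreg against nTreg 6 rose and 6 fell. Their medians were -0.07, 0.13 and -0.02 in that order. Over all tested genes the shares higher and lower were 16.4% and 12.7%, 15.6% and 21.0%, and 18.4% and 19.0%. The medians over all genes were 0.04, -0.02 and 0.03. Egr2, a zinc-finger factor that induces Cblb in anergic mouse T cells, averaged 9.90 in ex-iTreg, 9.48 in iTreg and 9.58 in nTreg cells. It rose by 0.42 ± 0.06 in ex-iTreg over iTreg and by 0.32 ± 0.06 over nTreg (adjusted p = 0.0036 and 0.00867, limma), the second call being lost without ex-iTreg replicate 1 (0.0576). Egr3, its relative, was called in none of the comparisons. Egr1, another relative, was called lower in both induced populations than in nTreg cells. Its differences were -0.22 ± 0.07 for iTreg and -0.25 ± 0.07 for ex-iTreg (adjusted p = 0.0474 and 0.0267, limma). Ikzf1, which encodes Ikaros, rose by 0.45 ± 0.06 in iTreg and by 0.82 ± 0.06 in ex-iTreg cells over nTreg (adjusted p = 0.0038 and 0.00019, limma), the same order as the brightest Cblb probe set. Foxo1, a forkhead factor of resting T cells, fell by 0.62 in ex-iTreg against nTreg (adjusted p = 0.00145, limma). Pdcd1, which encodes the inhibitory receptor PD-1, averaged 6.76 in ex-iTreg, 6.93 in iTreg and 8.75 in nTreg cells and fell by 1.82 and 2.00 in iTreg and ex-iTreg against nTreg (adjusted p = 5.13e-05 and 5.81e-06, limma). Klf2, a quiescence factor, rose by 0.48 ± 0.07 and 0.69 ± 0.07 in the same comparisons (adjusted p = 0.00529 and 0.000733, limma). Izumo1r, which encodes folate receptor 4, fell by 1.46 in ex-iTreg against iTreg, and the inhibitory receptor Lag3 fell by 0.80 (adjusted p = 9.01e-05 and 0.000758, limma). Without any 1 array the lower count in iTreg against nTreg was 2, and without ex-iTreg replicate 1 the higher count in ex-iTreg against nTreg was 3.

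The genes whose pattern over the 6 arrays was most like each member were found by the root mean square distance of log2 values, each gene centred on its own mean, over the brightest probe sets of all tested genes. Nearest to Cblb were Prkd3, Nol8 and Golt1b, from 0.0397 to 0.045. Itch was nearest to Hdhd5, Cstf2 and Slc35a5 (0.0145 to 0.0327), and Rnf128 to Hmgn3, Cbarp and Rida (0.0864 to 0.1). For Ndfip1 they were Sod2, Antxr2 and Pdia4 (0.0238 to 0.0271), and for Peli1 Tctn3, Ap1m1 and Fbxo46 (0.0335 to 0.0375). Dgka was nearest to Thy1, Dph2 and Dnm2 (0.0257 to 0.0379), and Dgkz to Ppp3r1, Kdm2a and Dnajc8 (0.014 to 0.0202). Thy1 encodes the surface protein whose Thy1.1 allele was used in the sort. Rnf128 had the largest spread of its own around its mean, 0.43, and Dgkz the smallest, 0.0691. With 11019 genes and 6 arrays in 3 groups, near matches are a description only.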

How the data were processed

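Per the submitters' processing notes, the authors made the deposited log2 expression values with RMA, with software not given in the sources used here. All 6 arrays were used, and 0 sample columns were left unused. Of 45101 probe sets, 64 controls were set aside. The platform annotation gave 1 symbol to 34945 of the rest, several to 932 and none to 9160. The filter kept probe sets above 5.48, the overall median, on 2 or more arrays. A gene in a list was represented by its brightest probe set on average. The model was fitted in limma 3.58.1 (R 4.3.3, eBayes, 1 mean per group, 3 residual and 3.37 prior degrees of freedom). By the rule for naming, every probe set of the 7 genes was reported, with up to 6 genes of each list by largest absolute t, Ndfip2, Cbl, Dtx1, Egr2, Egr3, Rasgrp1, Plcg1 and Prkcq, and the 3 nearest profiles of each member. Egr1 and Rasgrp2, relatives of named genes, were named outside this rule. The counts of named list genes under the alternatives leave them out. The genes, lists and tests were chosen with earlier results of these data known. Signal strength and the number of arrays limit the precision. Listed genes without a probe set of their own were not analysed here. Alternatives covered filters, normalization, the variance prior, the arrays fitted, a replicate block and each array left out.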

Additional observations from a re-analysis of the deposited data

How the results depend on the processing

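Each of 60 differences of member probe sets was refitted under 12 or 13 alternatives; 1459398_at did not pass the stricter filter and has 12. The sign changed under at least 1 alternative for 0 of the 37 called and for 4 of the 23 not called, 3 of Itch and 1 of Dgkz. Of the 37 called, 18 kept their call under every alternative run, 4 of 11 in iTreg against nTreg, 4 of 12 in ex-iTreg against iTreg and 10 of 14 in ex-iTreg against nTreg. The other 19 lost it under at least 1, and 8 of the 23 gained one. In iTreg against nTreg the called member probe sets numbered 5 with no filter, 5 with only the 4 arrays compared and 4 to 6 with 1 array left out. In ex-iTreg against iTreg they numbered 6 with no filter and 5 to 11 with 1 array left out: 7 without iTreg replicate 1 and 5 without either ex-iTreg replicate. In ex-iTreg against nTreg the range was 11 to 14. Over the whole array, leaving out 1 array gave 3420 to 5380 calls in place of 6826 in iTreg against nTreg (4002 without iTreg replicate 1 and 3420 without iTreg replicate 2). It gave 4971 to 9104 in place of 8694 in ex-iTreg against iTreg (5719 without iTreg replicate 2, and 5270 and 4971 without ex-iTreg replicates 1 and 2). In ex-iTreg against nTreg it gave 5243 to 7928 in place of 8558 (5243 and 5305 without ex-iTreg replicates 1 and 2). With fewer arrays the fit has fewer degrees of freedom; other causes were not tested. With a replicate block, 7 member probe sets were called in iTreg against nTreg. The numbers gave no pairing, since deviations of same-numbered arrays correlated at -0.04, -0.09 and -0.01. Of 63 calls of named list genes, 46 held under every alternative, 17 were lost under at least 1 and 0 changed sign, while 7 of the 33 differences not called changed sign under at least 1. Leaving out the 2 member probe sets under the filter level in a group, an alternative chosen after seeing the data, gave 9, 11 and 12 called in iTreg against nTreg, ex-iTreg against iTreg and ex-iTreg against nTreg.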
